A study of Sminthopsis crassicaudata with 9 samples.

Results

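Odorants are detected in the nose by sensory neurons that turn binding of a receptor into a current through one cascade. The G protein subunit GNAL activates the adenylyl cyclase ADCY3, cyclic AMP opens the channel built from CNGA2, CNGA4 and CNGB1, and the calcium that enters opens the chloride channel ANO2. OMP is the classical protein of mature olfactory neurons. Neurons of the vomeronasal organ, which detects pheromones, use a phospholipase pathway that in rodents ends in the channel TRPC2, and TFAP2E is a transcription factor known in mice from their basal class. These 8 genes, OMP, ANO2, CNGA2, CNGA4, GNAL, ADCY3, TFAP2E and TRPC2, were listed by name. No measured value entered that rule, but the list was drawn up with earlier results of these data known. The count table has a row for 6 of them among its 21703 gene models, while GNAL and TRPC2 were not analysed here.

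The tissue was the face of newborn fat-tailed dunnarts (Sminthopsis crassicaudata), a marsupial born at a very early stage. The young were under 24 h old in the chromatin pools and were labelled P0 for RNA, with no treatment, and the tissue consisted of the mandibular, maxillary and fronto-nasal prominences after removal of tongue, neural tube and eye primordia. RNA was sequenced from 3 libraries, each a pool of 2 young, named FP1, FP2 and FP3 in the table. Chromatin immunoprecipitation was done on pools of 26 and 27 heads for the histone marks H3K4me3, found at active promoters, and H3K27ac, which also covers active enhancers, each against input DNA of the same pool. There is 1 condition, so nothing is compared between groups, and the spread given is that between these pools. In whole tissue, a smaller number of olfactory neurons and less RNA per neuron cannot be told apart.

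Transcripts of all 6 annotated genes were present in the newborn face. Each exceeded 1 TPM (the count per kilobase of exon, scaled to one fixed total in every library) in all 3 libraries, as did 75.3% of the 14158 genes with a symbol and intact counts. The level was highest for OMP, at 124 ± 33.7 TPM (SD, n = 3), which ranked it 1005 of those genes, and lowest for CNGA4, at 7.44 ± 1.85 TPM. The median over the 6 was 22.4 TPM and the median over all genes with a symbol was 12.8 TPM.

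OMP stood at 91.7, 159 and 122 TPM in FP1, FP2 and FP3, from 4541, 6475 and 5420 reads. Its lowest library was thus above the highest library of any other member. The dunnart model of OMP is a single exon of 5460 bases on the minus strand of scaffold00005, from 15766601 to 15772060, and it lies within an intron of CAPN5, a gene for a calcium-dependent protease that is read from the same strand. These models share 0 exon bases, and the nearest CAPN5 exons are 25.0 kb upstream and 7.18 kb downstream of OMP. CAPN5 itself stood at 67.6, 114 and 63.5 TPM, so both genes were highest in FP2. The reads were counted by strand. On one strand, reads of the OMP transcript and of unspliced CAPN5 RNA cannot be told apart. The TPM of OMP was 1.36, 1.40 and 1.92 times that of CAPN5 in FP1, FP2 and FP3. How much of it came from CAPN5 RNA was not measured, so the level and rank of OMP are uncertain to that extent.

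**Figure D1:**
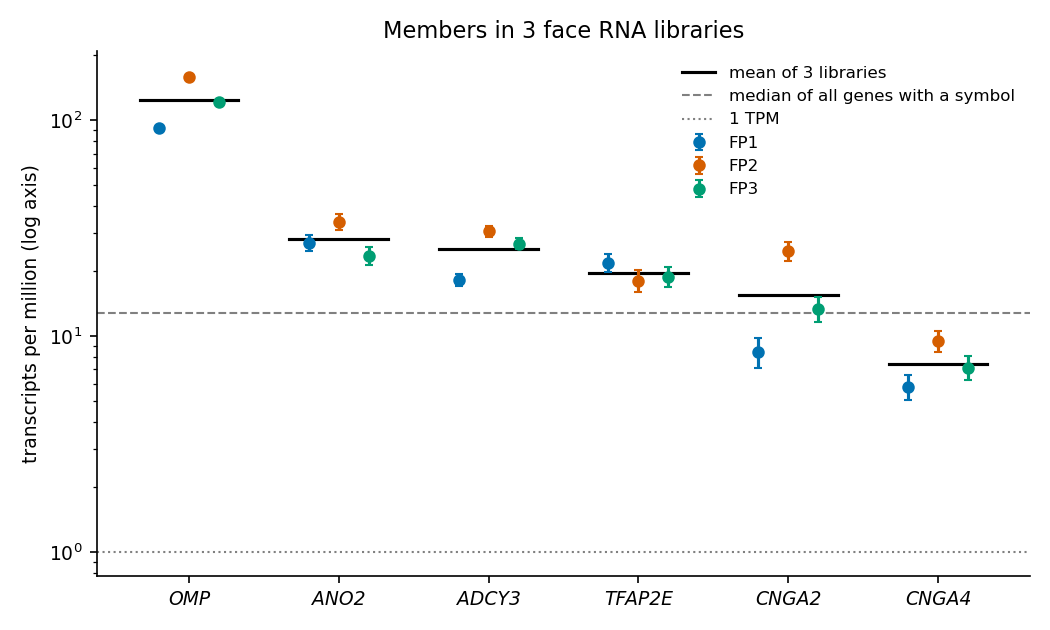
Level of the 6 annotated genes in the 3 face RNA libraries, in TPM on a log axis. Points are libraries with the exact 95% Poisson interval of their count, black bars are means of 3 libraries, and the dashed line marks the median of all genes with a symbol, 12.8 TPM. OMP lies above all others, and CNGA2 is the gene whose libraries lie farthest apart.

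ADCY3, the cyclase of the cascade, is also known from primary cilia of other neurons. It stood at 18.2, 30.5 and 26.8 TPM, with a mean of 25.2 ± 6.30 TPM (SD, n = 3), and its model has 21 exon blocks over 107 kb of scaffold00027, from 15324885 to 15432170. The exact 95% Poisson intervals of the 3 libraries, which cover counting error only, were 17.1 to 19.5, 28.8 to 32.3 and 25.3 to 28.4 TPM. They do not overlap, but the separation of FP2 and FP3 depends on the scaling: the median gene was 0.32 higher in FP2 than in FP3 on the log2 scale of TPM, against 0.19 for ADCY3, and with TMM scaling ADCY3 was higher in FP3 (14.7) than in FP2 (13.1), with FP1 lowest (9.32) as in TPM.

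CNGA2, the subunit that can form a channel alone, varied most. It had 8.40, 24.8 and 13.4 TPM, from 154, 374 and 220 reads, a range of 2.95-fold with a coefficient of variation of 54.2%. CNGA4, a subunit that modulates the channel, had 5.78, 9.44 and 7.10 TPM and differed by 1.63-fold between its lowest and highest library. Within each library CNGA2 exceeded CNGA4, by 1.45, 2.62 and 1.88 times in FP1, FP2 and FP3. The models lie on scaffold00008, from 20143908 to 20151295, and on scaffold00187, from 859594 to 871182.

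ANO2, the calcium-activated chloride channel of olfactory cilia, had 27.1, 33.7 and 23.4 TPM, a mean of 28.1 ± 5.22 TPM (SD, n = 3). It is the longest of the 6 models, at 223 kb of scaffold00040 from 763052 to 986496, but its 14 exon blocks hold only 2232 bases. Its paralogue ANO1, which is also found in vomeronasal neurons and in glands, had 4.97, 9.59 and 7.39 TPM, and ANO2 was 5.45, 3.52 and 3.17 times as high. The next gene model upstream of ANO2 on the same strand, LOC116419255, had 14.3, 46.8 and 25.5 TPM. Its start lies 135 kb from that of ANO2.

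TFAP2E, the factor of the basal vomeronasal class, was the steadiest member and the only one of the 6 not highest in FP2 in TPM. It had 21.9, 18.0 and 18.8 TPM, a mean of 19.6 ± 2.02 TPM (SD, n = 3), from 414, 281 and 320 reads. The model has 8 exon blocks on scaffold00068, from 19116985 to 19152569. Its relatives TFAP2B (56.0 ± 5.92 TPM), TFAP2A (54.1 ± 7.34 TPM) and TFAP2C (39.2 ± 6.68 TPM), which act in face ectoderm and neural crest, all averaged more.

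The order of mean levels was OMP, ANO2, ADCY3, TFAP2E, CNGA2 and CNGA4. OMP exceeded ANO2 by 4.42 times in the means, and their ranges over the 3 libraries did not overlap. The place of OMP holds for its reads as counted, which may include unspliced CAPN5 RNA. Each of the 4 other neighbouring pairs had overlapping ranges: ANO2 and ADCY3, ADCY3 and TFAP2E, and TFAP2E and CNGA2 kept their order in 2 of 3 libraries, and CNGA2 and CNGA4 in 3 of 3. The ranges of neighbours below OMP thus overlapped, and of these 4 pairs CNGA2 and CNGA4 were the one ordered alike within every library.

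Most other annotated genes of the olfactory cascade passed the same limit. Of 14 partners on a fixed list, 9 have a row, and 8 of these exceeded 1 TPM in every library, beside 75.3% of all genes with a symbol. CNGB1, the third channel subunit, was the lowest of these 8, at 1.91, 7.45 and 3.32 TPM, and CNGA2 was 4.40, 3.33 and 4.02 times as high. SLC24A4, the exchanger that clears calcium from the cilium, stood at 0.632, 2.62 and 1.08 TPM and missed the limit in FP1. RIC8B, SLC12A2, RTP1, RTP2 and GRK3 were not analysed here.

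STOML3, a membrane protein of olfactory cilia, was steady at 53.4, 69.5 and 55.3 TPM. GNG13, the G protein gamma subunit of olfactory and taste cells, had 69.4, 81.0 and 50.6 TPM. The phosphodiesterases PDE1C and PDE4A, which end the cyclic AMP signal, averaged 9.52 ± 3.35 and 7.06 ± 1.33 TPM (SD, n = 3 each). REEP1, known to help odorant receptors reach the membrane in cultured cells, averaged 14.5 ± 3.77 TPM. The genes used widely outside the nose were GNB1, a G protein beta subunit, at 237 ± 29.2 TPM and ARRB2, an arrestin, at 59.2 ± 4.52 TPM.

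On the vomeronasal side, 7 of 8 annotated genes exceeded 1 TPM in every library, beside 75.3% of all genes with a symbol. GNG8, the gamma subunit of vomeronasal neurons, had 1.76, 3.93 and 4.26 TPM, but from only 6, 11 and 13 reads, so its order over libraries is poorly resolved. The G protein alpha subunits of the apical and basal classes in mice, GNAI2 and GNAO1, averaged 141 ± 27.6 and 8.79 ± 1.91 TPM (SD, n = 3 each), and both are used by many other cells. ITPR3, the calcium release channel of the phospholipase pathway, averaged 15.1 ± 3.48 TPM. ATF5 and BCL11B, factors needed by vomeronasal neurons in mice, averaged 179 ± 40.6 and 20.6 ± 6.70 TPM. MEIS2, of the apical class in mice, had 0 reads in all 3 libraries, but its model holds only 93 bases, so that 3 counts, the limit a count of 0 allows for counting error, would be up to 4.32 TPM. PLCB2 was not analysed here.

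Markers of the cells around these neurons differed in what they could show. Their counts stand beside the 75.3% of all genes with a symbol that exceeded 1 TPM in every library. Of the 14 annotated lineage factors of olfactory neurons, 11 exceeded 1 TPM in every library, among them SOX2 (37.5 ± 1.56 TPM) and DLX5 (34.5 ± 9.36 TPM), which other face tissues also use. Of 14 annotated genes of young olfactory neurons and growing axons, 13 did, led by DPYSL3 (63.0 ± 17.1 TPM), TUBB3 (44.8 ± 7.87 TPM) and NRP1 (40.8 ± 6.51 TPM). For ensheathing glia it was 4 of 6, led by S100B (19.5 ± 7.26 TPM), FABP7 (12.4 ± 7.75 TPM) and SOX10 (10.1 ± 2.76 TPM), and for GnRH neurons 1 of 3, ANOS1 at 7.78 ± 4.29 TPM, with KISS1R at 0.127 ± 0.112 and TACR3 at 0.0281 ± 0.0245 TPM. Only 1 of 5 olfactory support cell genes has a row, ERMN at 0.798 ± 0.416 TPM, so that cell type could not be checked.

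Among markers of other tissues that use related genes, those of retina, taste and forebrain were mostly low, while general neuronal genes were not. Over all genes with a symbol, 75.3% exceeded 1 TPM in every library. Among 9 annotated retina genes 1 exceeded 1 TPM in every library, ABCA4 at 2.56 ± 0.626 TPM, PDE6A and RCVRN averaged 0.113 ± 0.112 and 0.110 ± 0.106 TPM, and 4 of the 9 had 0 reads in all libraries, where 3 counts would be 0.117 to 0.421 TPM. Of 6 taste and chemosensory genes, 1 exceeded 1 TPM in every library: POU2F3 averaged 3.54 ± 2.81 TPM, TRPM5 0.495 ± 0.354 and TAS1R1 0.183 ± 0.120 TPM. Of the 9 annotated forebrain genes 2 did, SLC17A6 at 2.97 ± 1.17 and SLC17A7 at 2.85 ± 1.86 TPM, with EMX1 at 4.36, 1.33 and 0.972 TPM. The summed level of the forebrain list was 18.5, 8.90 and 5.28 TPM in FP1, FP2 and FP3, and thus highest in FP1. Trigeminal markers exceeded 1 TPM for 3 of 7 genes, with ISL1 (15.5 ± 4.94 TPM), PIEZO2 (2.59 ± 0.119 TPM) and POU4F1 (1.96 ± 0.760 TPM) highest. General neuronal genes did so for 7 of 9, led by UCHL1 (61.9 ± 6.51 TPM), SYP (35.1 ± 7.48 TPM) and ELAVL3 (11.4 ± 3.67 TPM). The 2 others had 0 reads in models of 127 and 549 bases, where 3 counts would be 3.17 and 0.732 TPM.

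The cyclic nucleotide channels of the eye, looked up after the values were seen, were at the lower end. CNGA1 and CNGB3, of rod and cone channels, averaged 0.0979 ± 0.0763 and 0.0677 ± 0.0748 TPM, and CNGA3, of cone channels, had 0 reads in all 3 libraries, which allows up to 0.189 TPM at 3 counts. Over all paralogues of the 8 genes, 13 of 26 annotated ones exceeded 1 TPM in every library, beside 75.3% of all genes with a symbol. GNAS, the widely used relative of GNAL, averaged 34.2 ± 4.61 TPM.

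FP2 gave the highest TPM for ADCY3, CNGA2, CNGA4, ANO2 and OMP, which is 5 of 6. Of the 10665 genes with a symbol over 1 TPM in every library, 62.4% were also highest in FP2, so this count says little by itself. The median gene was 0.25 higher in FP2 than in FP1 on the log2 scale, and members are given relative to that median. With TMM scaling, which sets the typical gene level between libraries, 4 of 6 members were highest in FP2, against 31.3% of all expressed genes, and ADCY3 moved to FP3.

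Relative to the median gene, the FP2 level exceeded the FP1 level by 1.31 log2 units for CNGA2, 0.54 for OMP, 0.49 for ADCY3, 0.45 for CNGA4 and 0.06 for ANO2, and fell short by a log2 difference of -0.53 for TFAP2E. The CNGA2 difference was larger than that of 97.1% of 3262 expressed genes within 2 times its mean count, while the figure was 91.4% for OMP, 85.2% for ADCY3, 77.8% for CNGA4, 52.2% for ANO2 and 12.4% for TFAP2E. CNGB1 showed a relative difference of 1.71, above 98.3% of genes of like count, and SLC24A4 one of 1.80. POU2F3, from the taste and chemosensory list, showed 2.44, above 99.5% of genes of like count. Differences of this size were thus not particular to the cascade. Against FP3 the FP2 level was less distinct, with relative differences of 0.57 for CNGA2, 0.20 for ANO2, 0.09 for CNGA4, 0.06 for OMP, -0.13 for ADCY3 and -0.38 for TFAP2E. FP3 over FP1 gave 0.74 for CNGA2, 0.62 for ADCY3, 0.48 for OMP and 0.36 for CNGA4, and -0.14 for ANO2 and -0.15 for TFAP2E. Relative to the median gene, CNGA2, ADCY3, OMP and CNGA4 were thus lowest in FP1. The share of all expressed genes lowest there was not counted, so this order only describes the pools. In FP2 over FP1, STOML3 (0.12), GNG13 (-0.03) and GNB1 (0.07) stayed close to the median gene.

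The lists around the members differed in FP2 over FP1. Of 7 expressed vomeronasal genes 4 were above the median gene, with a list median of 0.41 and GNG8 (0.90) and BCL11B (0.73) highest. The GNG8 value rests on only 6 and 11 reads in FP1 and FP2. Of 11 expressed lineage factors 1 was above the median gene in FP2 over FP1, with a list median of -0.32, and of 4 expressed glia genes 0 were, with a median of -0.52. Genes of young olfactory neurons were spread around the median gene, with 8 of 13 above it and a list median of 0.01. For the 6 members 5 were above, with a median of 0.47, and for the 8 expressed cascade partners 6 were, with a median of 0.12. Expressed general neuronal genes resembled the partners, with 4 of 7 above and a median of 0.12. Of 3 expressed trigeminal genes 1 was above, with a median of -0.02. With 3 libraries of 1 condition these are descriptions of pools, and what part the makeup of the dissected tissue had in them was not tested.

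**Figure D2:**
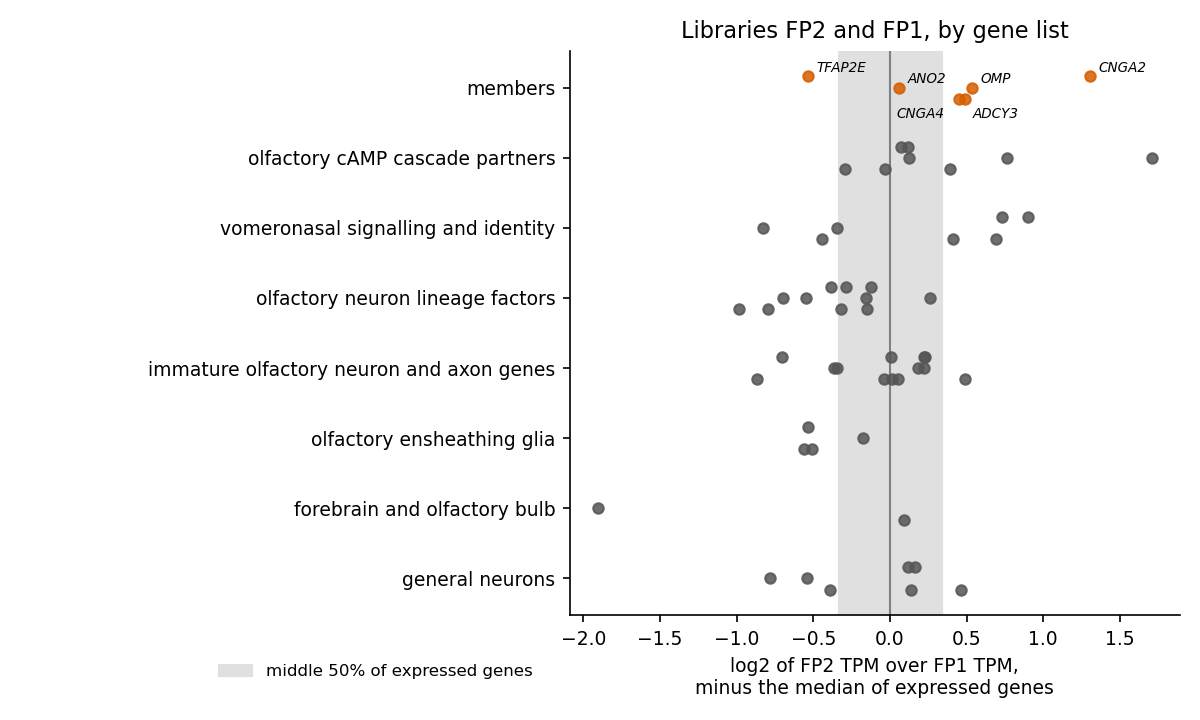
Difference between libraries FP2 and FP1 for genes over 1 TPM in every library, as the log2 ratio of TPM minus the median of all expressed genes. Each point is a gene, rows are gene lists, and the grey band holds the middle 50% of expressed genes. CNGA2 lies at 1.31 and TFAP2E at -0.53, while lineage factors and glia genes lie mostly below 0.

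Chromatin at the annotated starts divided the 6 genes in a way their transcript levels did not. Peaks were kept at q under 0.05 and in both pools, sharing 50% of the length of either peak, and a peak's height is its fold enrichment over input. H3K4me3 lay within 1 kb of the transcription start site (TSS) of 5 of 6 genes, against 83.1% of all genes with a symbol and 90.5% of those expressed. H3K27ac lay there for 5 of 6, against 85.9% of all genes with a symbol. These shares are near the background, but the heights were far apart.

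ADCY3 had a promoter of ordinary H3K4me3 height but lower H3K27ac height. Its H3K4me3 peak covered the TSS over 2869 bases with fold enrichments of 51.9 and 61.7 in replicates 1 and 2, and its H3K27ac peak reached 20.1 and 22.0. The mean H3K4me3 height of 56.8 was above that of 53.6% of the 4299 genes within 2 times its TPM, whose median was 54.6. The mean H3K27ac height of 21.0 was above that of 28.4% of the same genes, whose median was 31.3.

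CNGA4 and TFAP2E had lower H3K4me3 peaks than ADCY3, each shared with a neighbouring start on the other strand. The H3K4me3 peak over the CNGA4 TSS had heights of 27.4 and 25.9 and the H3K27ac peak 38.0 and 23.9, but the TSS of FAM160A2, at 26.6 ± 2.18 TPM, lies only 188 bases away, so the signal belongs to either start. At TFAP2E the H3K4me3 peak ran over 6450 bases, with heights of 15.1 and 36.5, and H3K27ac reached 18.3 and 20.5. There the unnamed model LOC105749973, at 1.96 ± 0.675 TPM, starts 223 bases away. Both neighbours were picked after their values were seen. The mean H3K4me3 heights, 26.7 for CNGA4 and 25.8 for TFAP2E, were above those of 32.1% and 21.0% of genes of like TPM. Their mean H3K27ac heights, 30.9 and 19.4, were above those of 65.2% and 27.1% of the same genes.

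OMP and CNGA2 had only weak marks near their starts. No H3K4me3 peak covered the TSS of OMP. The nearest one began 931 bases inside the gene with heights of 4.15 and 3.54, beside an H3K27ac peak at 647 bases with 2.98 and 4.36. At CNGA2 the H3K4me3 peak stood 173 bases upstream with heights of 4.67 and 4.52, and a H3K27ac peak of 5.54 and 3.30 covered the TSS.

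Genes within 2 times the TPM counted for OMP had a median H3K4me3 height of 61.4. Only 5.43% of those 1860 genes were lower than OMP, at 3.84. That match rests on a level that may include reads of unspliced CAPN5 RNA. The CAPN5 start had mean heights of 78.9 for H3K4me3 and 50.0 for H3K27ac. For CNGA2 the median of 4030 genes of like TPM was 50.5 and 12.0% were lower than its 4.60. With peaks kept at q under 1e-05, OMP lost both of its peaks within 1 kb and CNGA2 its H3K27ac peak.

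ANO2 had no peak of either mark at its start. Within 100 kb of its TSS there were 0 H3K4me3 peaks and 3 H3K27ac peaks, of mean height 3.68 to 4.85, and the nearest lay 36.9 kb inside the gene. Among 4260 genes of like TPM, 92.3% had H3K4me3 within 1 kb of the TSS. Over its whole body of 223 kb there were 3 H3K4me3 peaks of height up to 3.88 and 7 H3K27ac peaks of up to 6.91. Between ANO2 and LOC116419255, over 116 kb, and within that model there were again 0 H3K4me3 peaks, regions added after the first counts were seen. These models were carried over from another marsupial, and whether the annotated starts are the ones in use was not tested.

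Heights at the start varied among the partners too. GNB1 (119.6), REEP1 (44.5), GNG13 (32.1), ARRB2 (26.8) and PDE4A (21.5) had H3K4me3 within 1 kb of the TSS at or above 21.5, and PDE1C had a peak of 4.66. CNGB1, SLC24A4 and STOML3 had none, although STOML3 averaged 59.4 TPM. That makes 6 of 9 partners with H3K4me3 at the start, beside 5 of 6 members, 83.1% of all genes with a symbol and 90.5% of those expressed. Peaks are measured over all cells of the face, and the share of cells that carry a mark was not measured.

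**Figure D3:**
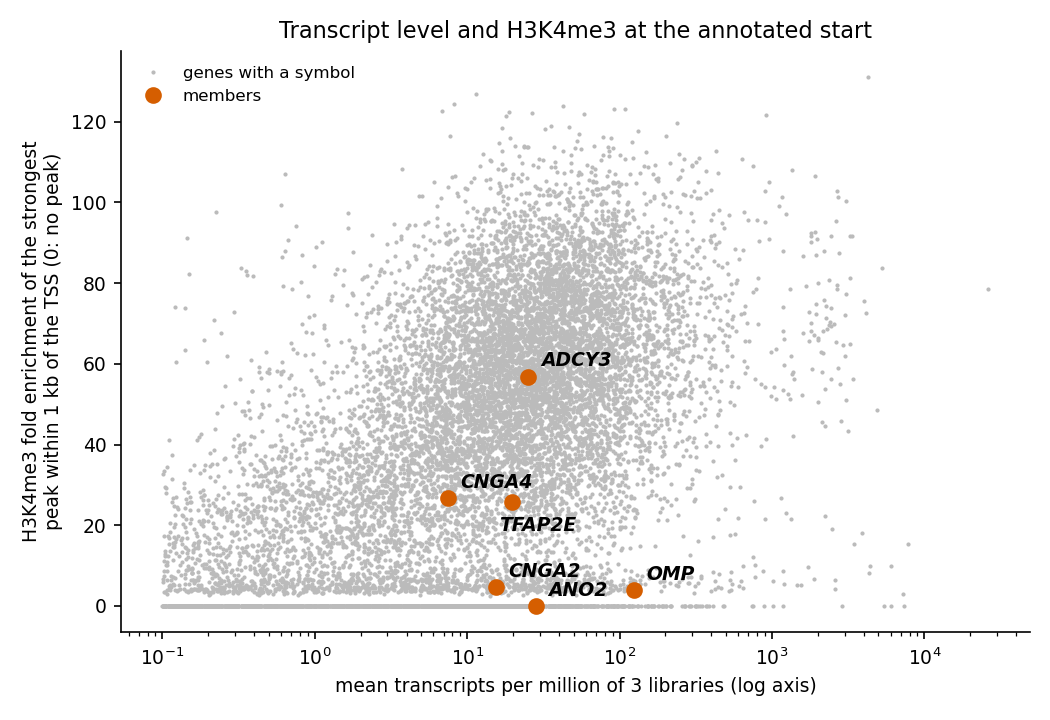
Mean transcript level over 3 libraries (log axis) against the mean fold enrichment of the strongest H3K4me3 peak within 1 kb of the TSS, with 0 for no peak. Grey points are genes with a symbol and mean TPM over 0.1, and orange points are the 6 members. OMP, CNGA2 and ANO2 lie at 3.84, 4.60 and 0, while ADCY3 lies at 56.8 among genes of like level. The level of OMP may include reads of unspliced CAPN5 RNA.

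Within 100 kb of the 6 starts there were 84 H3K4me3 peaks and 121 H3K27ac peaks in both pools, counted once per gene. Of all genes with a symbol, 99.2% had H3K4me3 and 99.6% had H3K27ac in such a window. The median gene had 10 H3K4me3 and 16 H3K27ac peaks, while the members had a median of 12 and 20.5. Only 23 and 37 of the members' peaks had a member as their nearest TSS, and the nearest TSS need not be the gene a region acts on. Just outside the window, from 100 to 110 kb, lay 4 H3K4me3 and 11 H3K27ac peaks, beside 12 and 16 from 90 to 100 kb.

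CNGA2 and TFAP2E each had 27 H3K4me3 peaks, more than 79.3% of genes with a symbol, yet the landscapes differed. Around CNGA2 every one of the 27 H3K4me3 and 39 H3K27ac peaks was weak, with mean heights of 2.85 to 6.16 and 2.80 to 7.42. The tallest H3K27ac peak, at 8.93 and 5.91 in replicates 1 and 2, lay 12.4 kb downstream of the TSS, beyond the end of the gene. The tallest H3K4me3 peak lay 47.2 kb upstream and was nearest to FATE1, a testis antigen gene at 0.0303 ± 0.0524 TPM. Of the 27 H3K4me3 peaks 18 shared 50% of both lengths with an H3K27ac peak.

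Around TFAP2E the tallest peak of each mark lay at another start, above those over its own TSS. The highest H3K4me3 peak, at 90.7 and 82.2, lay 9.97 kb upstream over the starts of NCDN (58.0 ± 12.2 TPM), a neuronal gene, and KIAA0319L (26.9 ± 5.01 TPM). The highest H3K27ac peak, at 38.4 and 29.1, lay 84.7 kb downstream at PSMB2, a proteasome subunit gene at 225 ± 34.8 TPM. TFAP2E itself had 8 H3K4me3 and 8 H3K27ac peaks to which it was the nearest gene, among them a region 5.58 kb into the gene with H3K27ac heights of 6.62 and 8.11 and an H3K4me3 peak of 7.24 and 11.6 beside it.

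The CNGA4 window, with 13 H3K4me3 and 15 H3K27ac peaks, was led by CAVIN3, a gene of membrane caveolae at 177 ± 36.8 TPM. Its peaks, 66.9 and 65.9 kb downstream of CNGA4, had H3K4me3 heights of 44.3 and 61.6 and H3K27ac heights of 61.1 and 69.7. CNGA4 was the nearest TSS for 1 H3K4me3 peak and 2 H3K27ac peaks, all inside its gene body, since FAM160A2 counted as nearest for the shared promoter. In this window 8 other gene models start, more than around any other member.

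OMP had 11 H3K4me3 and 23 H3K27ac peaks in its window, and all 11 H3K4me3 peaks shared 50% of both lengths with H3K27ac. The tallest of both marks lay together 51.7 kb downstream, with H3K4me3 heights of 10.1 and 10.1 and H3K27ac heights of 11.4 and 7.40. That region lies beyond the end of CAPN5 and is nearest to MYO7A, the myosin of inner ear hair cells, at 2.51 ± 1.25 TPM. OMP was the nearest TSS for 5 H3K4me3 and 9 H3K27ac peaks, of which the tallest, 28.8 kb downstream, had H3K4me3 heights of 6.47 and 6.85.

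**Figure D4:**
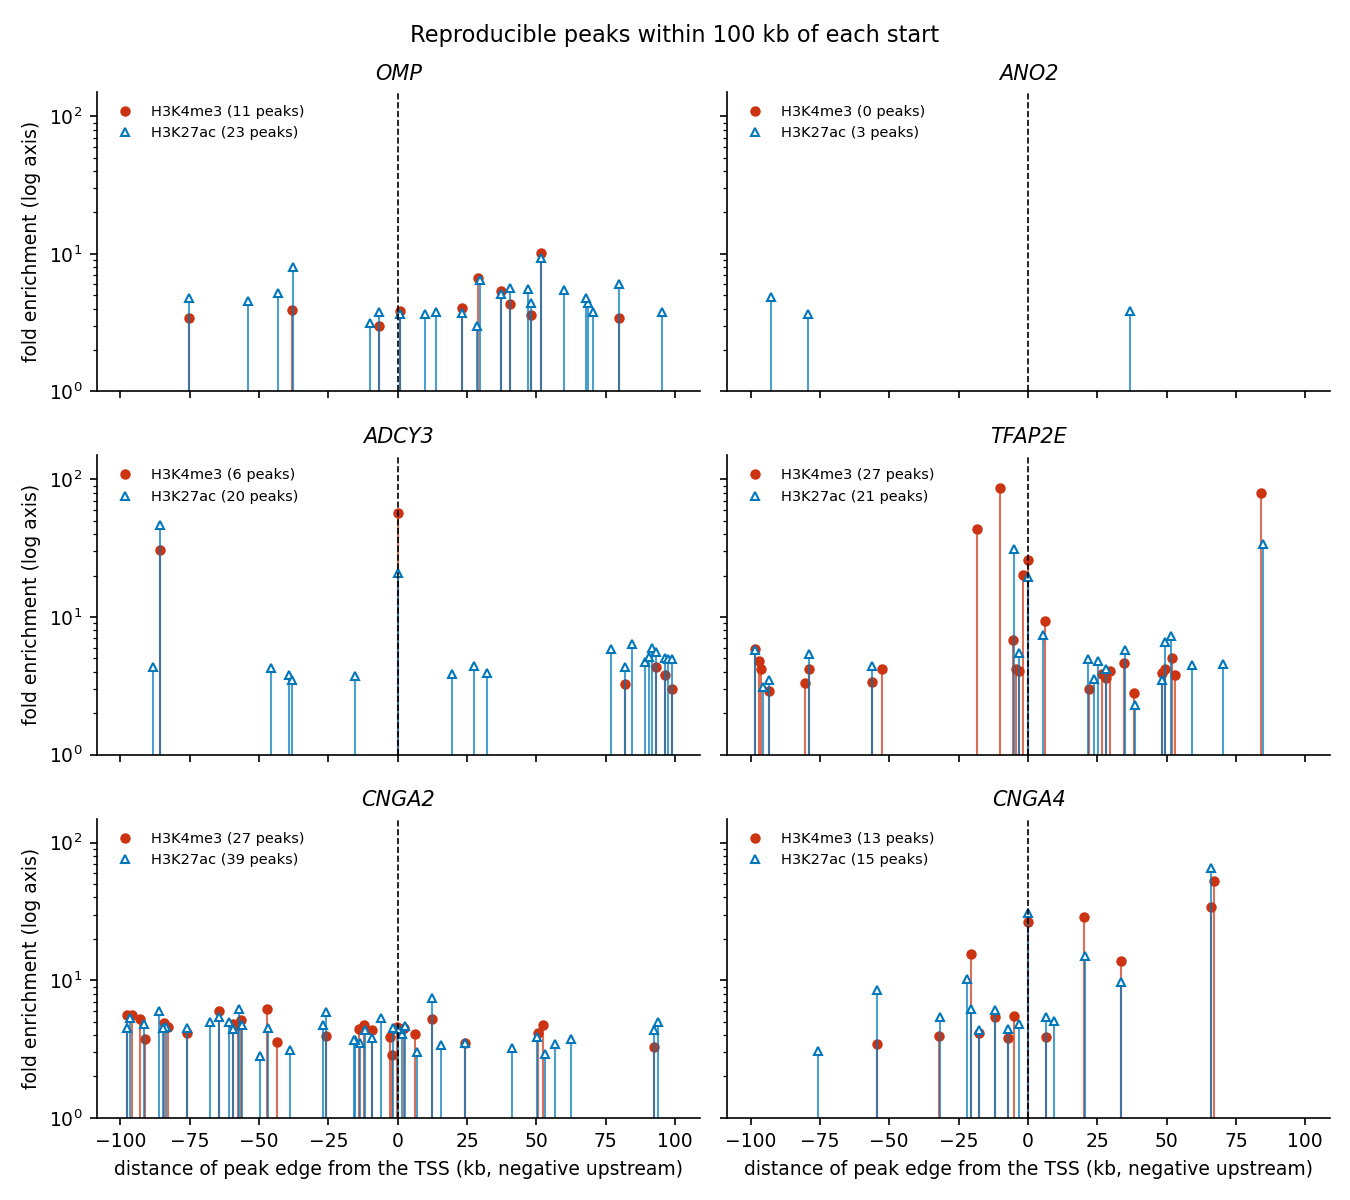
Reproducible peaks within 100 kb of the TSS of each member, by the distance of the nearest peak edge (kb, negative upstream) and the mean fold enrichment of the 2 replicates (log axis). Red circles are H3K4me3 and open blue triangles H3K27ac, and the dashed line is the TSS. ADCY3, TFAP2E and CNGA4 have tall peaks at the TSS, CNGA2 has many peaks below 10, and ANO2 has 3 H3K27ac peaks and no H3K4me3 peak.

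Enhancers, taken as H3K27ac peaks that share no base with H3K4me3, numbered 42 over the 6 windows, with a median of 6 per member and of 6 per gene with a symbol, and 93.9% of those genes had at least 1. ADCY3 had most, at 14, more than 83.9% of genes with a symbol. OMP followed with 11 (73.1%) and CNGA2 with 9 (63.7%), while ANO2 and TFAP2E had 3 each (25.3%) and CNGA4 had 2 (15.3%). The low counts depended on the peaks kept: in replicates 1 and 2 alone TFAP2E had 7 and 8 and CNGA4 had 5 and 5, and at q under 1e-05 TFAP2E and ADCY3 had 9 each. The tallest enhancer had a mean height of 6.38 for ADCY3 and of 4.54 to 5.52 for each other member, while all such peaks had a median of 4.22 and a 90th percentile of 5.95.

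Of the 20 H3K27ac peaks in the ADCY3 window, 10 lay in a dense stretch of the gene body far from the ADCY3 start. The stretch ran from 76.9 to 99.0 kb downstream of the TSS. Its peaks had mean heights of 4.36 to 6.38, and 6 of them were enhancers, out of 14 in the window. All 10 were inside ADCY3 and were nearest to the start of the next gene, PTRHD1. The strongest was the enhancer 84.6 kb downstream, with heights of 7.70 and 5.06. This stretch was picked after its values were seen. The tallest H3K27ac peak of the window, at 56.0 and 36.7, was 85.7 kb upstream at DNAJC27, a gene at 4.10 ± 1.10 TPM.

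**Figure D5:**
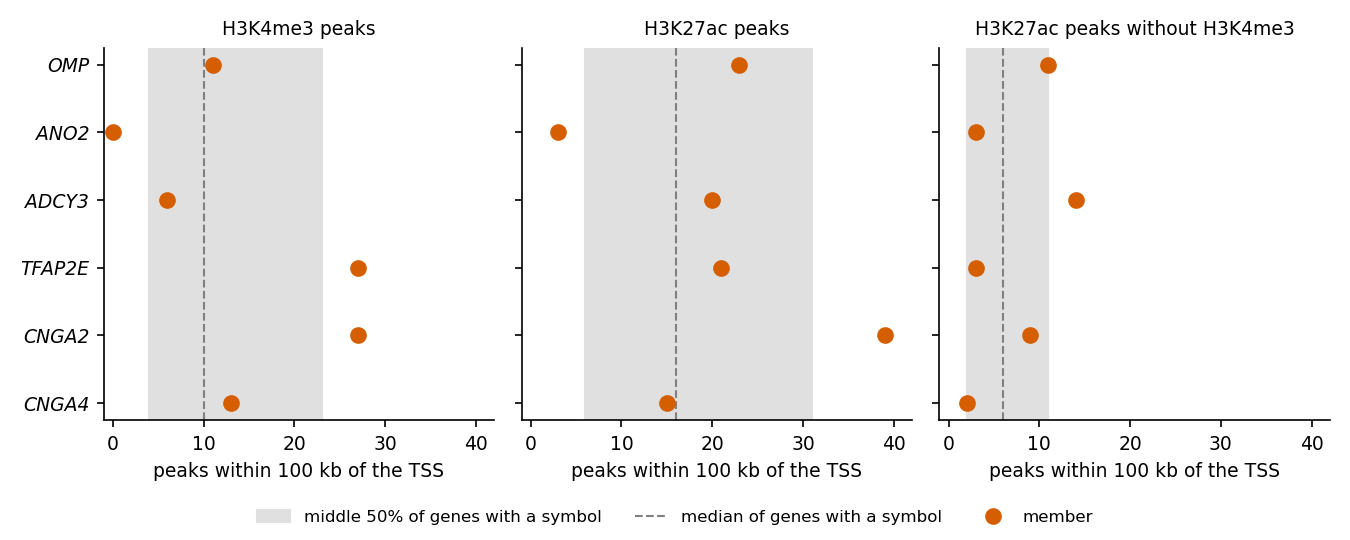
Number of reproducible peaks within 100 kb of the TSS of each member for H3K4me3, H3K27ac and H3K27ac without H3K4me3. Orange points are members, the dashed line is the median of genes with a symbol and the grey band their middle 50%. ANO2 has fewest peaks of the first 2 kinds, at 0 and 3, and CNGA2 has most H3K27ac peaks, at 39.

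Peak numbers of single replicates were close for most members. In replicates 1 and 2 alone there were 38 and 46 H3K4me3 peaks around CNGA2, 31 and 28 around TFAP2E, 17 and 15 around OMP, 15 and 15 around CNGA4, 11 and 11 around ADCY3, and 2 and 0 around ANO2. For H3K27ac, CNGA2 had 49 and 48 and ANO2 had 6 and 3. Where 1 peak of replicate 2 covered several peaks of replicate 1, each was counted: 16 of the 84 H3K4me3 and 19 of the 121 H3K27ac peaks shared their partner with another. Of these, 5 and 2 were over 2 times as tall in replicate 2 and were given the height of the shared peak there. Among the 5 were the broad H3K4me3 peak over the TFAP2E start and the narrow peak next to it. The mean height of 25.8 at that start thus includes a shared replicate 2 value.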

How the data were processed

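The members and lists were chosen with earlier results of these data known. Peak lists hold, per peak, the fold enrichment (a ratio over input) and the −log10 p-value and q-value that the authors deposited. Reads had been trimmed (cutadapt 1.9.1), mapped to the authors' own dunnart assembly (Bowtie2 2.3.5.1), filtered (SAMtools) and stripped of duplicates (Picard 2.23.1), and MACS2 2.1.1 called peaks in each replicate. The lists give no read totals, so the depth behind a peak is unknown from them.

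The RNA table holds raw counts deposited by the authors, who trimmed reads with Trimmomatic 0.39, aligned with HISAT2 2.21 and counted exon overlaps by strand with featureCounts (Subread 2.0.1) on gene models carried over from the Tasmanian devil. Counts summed to 17419099, 16358621 and 16096971 in FP1, FP2 and FP3. The columns name the group and not the replicate. For 11 genes whose lines are broken, coordinates were used and counts were not. The reference table of a different dunnart assembly gave no coordinates, and no sequence was read, so the planned promoter motifs were not searched.

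TPM, exact Poisson intervals, overlaps and distances were computed with Python 3.11.15, scipy 1.17.1 and pandas 2.3.3, and TMM factors with edgeR 4.0.16. The TSS is the outermost exon end. A peak of replicate 1 was kept at q under 0.05 with a partner in replicate 2 (50% of either length), at the interval of replicate 1. Of 156428 and 158331 H3K4me3 peaks and 200070 and 200992 H3K27ac peaks deposited, 108146 and 148724 were reproducible. No test was run, since there is 1 condition. Genes named are the members, all cascade and vomeronasal genes, the 3 highest of each other list (1 of the lineage factors is not reported here), and overlapping genes or those nearest to the tallest peaks. The other genes (CNGA1, CNGA3, CNGB3, GNAS, FAM160A2, LOC105749973, KIAA0319L and PTRHD1) were picked after their values were seen. Alternatives were TMM scaling, other denominators, thresholds, overlaps and windows, and leaving out replicates. The steps were tested on simulated data: TPM was within 0.2 log2 of the planted fold for 195 of 200 changed genes, and window counts were right for 500 of 500 genes.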

Additional observations from a re-analysis of the deposited data

How the results depend on the processing

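All 6 members passed as expressed under each alternative tried: TMM scaling, a denominator without the 18 genes over 5000 TPM, 2 CPM in 2 libraries, 10 counts in every library, and leaving out each library. In TMM-scaled CPM per kilobase of exon, a unit of its own, the members averaged 3.63 to 60.6, against 7.44 to 124 in TPM. The limit of 1 was kept in that unit, so counts given with TMM rest on an unlike, stricter limit. Context counts that changed by over 1.5 times were small: retina 0 with TMM against 1, forebrain 0 with TMM and 1 at 2 CPM against 2, taste 0 with TMM against 1, and trigeminal 5 at 10 counts against 3. Where the peak had to cover the TSS, 3 members had H3K4me3 against 5 within 1 kb, and at q under 1e-05, 3 had H3K27ac within 1 kb against 5. For H3K4me3, 84 peaks became 32 at q under 1e-05, 48 within 50 kb and 23 where the member was the nearest TSS. For H3K27ac, 121 became 64, 67 and 37 under these settings. The 42 enhancers became 21 within 50 kb and 15 where the member was nearest. Peaks of single replicates gave 114 to 115 H3K4me3 peaks, 157 to 158 H3K27ac peaks and 50 to 58 enhancers. No paired analysis was possible because there is 1 condition and no test between groups. Annotated starts, overlapping models and 3 pools limit every statement, and sequence was not examined.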
